A study of Mus musculus with 6 samples.

Results

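The CXC and CX3C chemokine receptors described here are 5 genes, Cxcr3, Cxcr4, Cxcr5, Cxcr6 and Cx3cr1, of 19494 genes with a symbol on the array. They were taken by gene symbol, and each had 1 row in the table, so no choice between rows was needed. All 5 were followed in regulatory T cells, or Tregs, from the tumour-bearing colonic lamina propria of mice. Colorectal cancer had been induced by the carcinogen azoxymethane (AOM) together with dextran sulfate sodium (DSS), an irritant of the gut lining. All mice had the genotype Foxp3-RFP x GPR15-GFP. In them red fluorescence reports Foxp3, the defining factor of Tregs, and green fluorescence reports GPR15, through which T cells home to the large intestine. Cells were stained for CD4, and red cells were sorted by their green signal into a GPR15-GFP+ and a GPR15-GFP- fraction, called here the samples labelled GPR15+ and GPR15-. Each fraction was represented by 3 arrays, numbered 1, 5 and 6 in both. The labels do not give the age of the mice, how many mice each sample held, or a fraction from untreated or tumour-free colon.

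Chemokine receptors are seven-pass membrane proteins coupled to inhibitory G proteins, and they steer cells along gradients of small secreted or membrane-held chemokines. CXCR3 is found on type 1 effector T cells and on Tregs that follow them and binds CXCL9, CXCL10 and CXCL11. CXCR4 binds CXCL12 and is widespread on leukocytes. CXCR5 binds CXCL13 and brings B cells, follicular helper and follicular regulatory T cells into B cell follicles. CXCR6 binds CXCL16 and marks many tissue-resident lymphocytes. CX3CR1 binds CX3CL1, a chemokine tethered to membranes, and is best known on monocytes and macrophages.

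The arrays had median log2 values of 6.49 to 6.64 over all rows, and their values spread least on the arrays numbered 1, with an SD of 1.63 for either fraction against 1.74 to 1.87 elsewhere. With 3 arrays a fraction, precision is limited by their number. T cell markers were bright, with 9 of 9 measured members above the median level of all genes, among them Cd3d at 11.74 and Cd5 at 11.54 log2 units. Of the Treg markers, 8 of 9 were above that median, the brightest being the TNF receptor family member Tnfrsf4 at 12.56 and the folate receptor family member Izumo1r at 11.52. The exception was Il2ra, which encodes the high-affinity chain of the interleukin-2 receptor and lay at 5.17. Foxp3 was not analysed here. Gpr15 itself lay at 8.51, 9.12 and 8.70 in the samples labelled GPR15- numbered 1, 5 and 6, and at 8.23, 7.86 and 8.28 in those labelled GPR15+. It was therefore lower where the label says GPR15+, without overlap, and did not pass adjustment over all genes (limma adjusted p = 0.773). Over all genes 9.17% were lower without overlap. Every direction below rests on the labels alone. The labels do not say whether the reporter allele keeps the sequence that the Gpr15 probes detect.

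The array signal of the receptors came in the order Cxcr4, Cxcr3, Cxcr6, Cxcr5 and Cx3cr1, and this order was found on 6 of 6 arrays. The signal of a row also depends on its own probes, so the order is one of signal and not of transcript number. By its mean over the arrays, Cxcr4 stood at the 98.7 percentile of all genes, Cxcr3 at the 93.8, Cxcr6 at the 81.1, Cxcr5 at the 65.3 and Cx3cr1 at the 35.1. Cxcr4 exceeded Cxcr3 by 1.26 to 1.80 log2 units on each array, and Cxcr3 exceeded Cxcr6 by 0.87 to 1.52. The step from Cxcr6 to Cxcr5 was 1.27 ± 0.35 (SD, n = 3) in samples labelled GPR15- and 0.47 ± 0.48 (SD, n = 3) in those labelled GPR15+. In the latter these neighbours did not differ beyond their spread, and on the array numbered 6 they were 0.035 apart. Cx3cr1 was below the median of all genes on each of the 6 arrays, and no detection calls were used here to say whether its signal was above background.

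**Figure D1:**
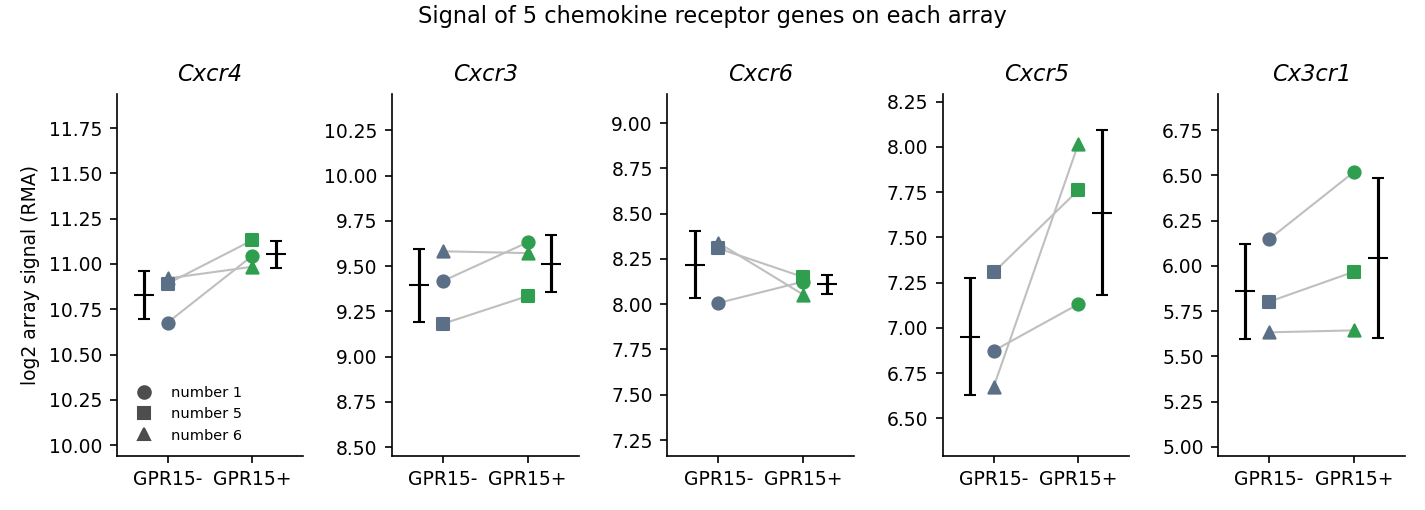
Log2 array signal of the 5 receptor genes (vertical axes, each spanning 2 log2 units around the gene's own mean) in the samples labelled GPR15- and GPR15+. Points are single arrays, marker shapes are the title numbers, grey lines join equal numbers, and bars to the side give mean ± SD of 3 arrays. Cxcr4 is the only gene whose fractions do not overlap, and Cxcr5 is the one with the widest shift.

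The question was what sets Tregs labelled GPR15+ in the tumour-bearing colon apart from those labelled GPR15-, here in their chemokine receptors. Of the 5 receptors, 4 lay above 0 in samples labelled GPR15+ and 1, Cxcr6, below. Cxcr5 had the largest difference, at 0.69 log2 units or 1.61-fold. No receptor passed after adjustment over all genes, and neither did any gene on the array (limma, 0 of 19494 genes, 0% called, smallest adjusted p = 0.540). At an unadjusted p under 0.05 limma found 6.23% of all genes, and 1 of the 5 receptors, Cxcr5. The genes above 0 made up 40.8% of all genes and 50.9% once each array was centred on its median, and 4 of 5 receptors lay above 0 in both cases. The genes at that unadjusted threshold were 2.79% higher and 3.44% lower as deposited, and 3.99% higher and 2.04% lower after centring. Equal numbers were treated as pairs for the differences within numbers and in a second fit, although the labels do not say what the numbers stand for. SEs, intervals and p-values are from the unpaired fit unless stated. With the number as a block limma again called 0 genes, while 12.4% of all genes had an unadjusted p under 0.05, and Cxcr5 was still the 1 receptor among them. Nothing in the labels says whether samples came from separate mice, so the p-values reflect the spread among these arrays alone, which may be technical. In bulk samples, fewer cells that carry a transcript and less transcript per cell cannot be told apart.

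Cxcr5, the receptor for follicles, lay at 6.87, 7.31 and 6.67 log2 units in the samples labelled GPR15- numbered 1, 5 and 6. It lay at 7.13, 7.76 and 8.02 in the samples labelled GPR15+ with the same numbers. The array labelled GPR15+ numbered 1 was below the array labelled GPR15- numbered 5, so the fractions overlapped, while within each number the sample labelled GPR15+ was the higher. The means were 7.64 ± 0.46 and 6.95 ± 0.32 (SD, n = 3 each), a difference of 0.69 ± 0.27 (SE; 95% interval 0.051 to 1.32). By size of difference, whatever its sign, Cxcr5 stood at the 97.4 percentile of all genes. The unadjusted p from limma was 0.0374 and the adjusted p 0.773. The difference was 0.26 within number 1, 0.46 within number 5 and 1.34 within number 6, so that most of the mean came from a single number.

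The Cxcr5 difference was 0.50 without the sample labelled GPR15+ numbered 6 and 0.94 without the one numbered 1. Its unadjusted p from limma rose to 0.0891 without the sample labelled GPR15- numbered 1, to 0.127 without the GPR15- sample numbered 6, to 0.0945 without the GPR15+ sample numbered 5 and to 0.133 without the GPR15+ sample numbered 6. It fell to 0.0240 without the GPR15- sample numbered 5 and to 0.00354 without the GPR15+ sample numbered 1 (limma, unadjusted). Weights estimated for each array by residual maximum likelihood gave Cxcr5 a difference of 1.04 and an adjusted p of 0.0233 in limma, at which 2174 genes were called. That estimate stopped before it converged and gave the GPR15+ sample numbered 6, the highest in Cxcr5, a weight of 6.56, against 0.19 to 1.72 for the others. Weights estimated gene by gene, an alternative chosen after seeing the data, gave 0.94 with an adjusted p of 0.113 in limma and called 2 genes.

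**Figure D2:**
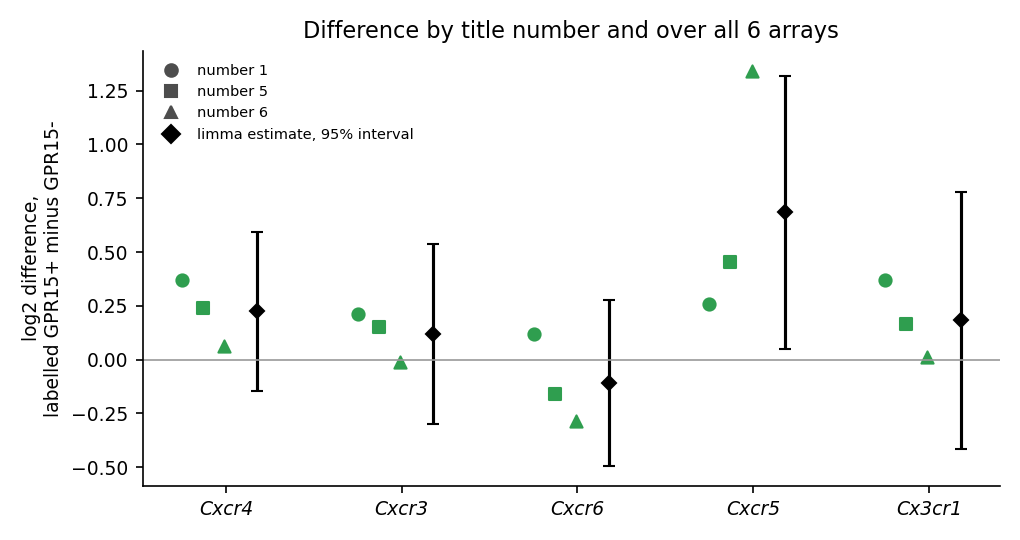
Log2 difference between samples labelled GPR15+ and GPR15- (vertical axis) for each receptor. Green markers are the differences within title numbers 1, 5 and 6. Black diamonds are the limma estimate over all 6 arrays with its 95% interval, from the unpaired fit. The interval of Cxcr5, 0.051 to 1.32, lies above 0 before adjustment for the number of genes, and the other 4 intervals hold 0.

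Cxcr4, the receptor for CXCL12 and the brightest of the 5, lay at 10.68, 10.89 and 10.92 in samples labelled GPR15- and at 11.04, 11.13 and 10.98 in those labelled GPR15+ (numbers 1, 5 and 6). All 3 arrays labelled GPR15+ were above all 3 labelled GPR15-, by 0.064 at the narrowest. Such a lack of overlap was found for 13.3% of all genes, with the GPR15+ label higher for 4.12% and lower for 9.17%. The means were 11.05 ± 0.07 and 10.83 ± 0.13 (SD, n = 3 each). The difference was 0.22 ± 0.16 (SE; 95% interval -0.14 to 0.59), or 1.17-fold, and did not pass (limma adjusted p = 0.797). It was 0.37, 0.24 and 0.064 within the numbers 1, 5 and 6. The spread within either fraction was small, and the interval leaves room for a difference of up to 0.59.

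Cxcr3, the receptor of type 1 responses, lay at 9.42, 9.18 and 9.58 in samples labelled GPR15- and at 9.63, 9.33 and 9.57 in those labelled GPR15+. The fractions overlapped nearly throughout, with number 5 the lowest in both. The difference of 0.12 ± 0.18 (SE; 95% interval -0.30 to 0.54) did not pass (limma adjusted p = 0.902). Within the numbers 1, 5 and 6 it was 0.21, 0.15 and -0.010.

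Cxcr6, the receptor for CXCL16, was the single member below 0. It lay at 8.01, 8.31 and 8.34 in samples labelled GPR15- and at 8.12, 8.15 and 8.05 in those labelled GPR15+. The samples labelled GPR15+ fell inside the range of the others, and their SD was 0.05 against 0.18. The difference of -0.11 ± 0.17 (SE; 95% interval -0.49 to 0.28) did not pass (limma adjusted p = 0.903). It was 0.12 within number 1, -0.16 within number 5 and -0.29 within number 6, so that its sign depended on the number. Without both arrays numbered 1 it was -0.22 (limma adjusted p = 0.417).

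Cx3cr1, the receptor for the membrane-held chemokine CX3CL1, lay at 6.15, 5.80 and 5.63 in samples labelled GPR15- and at 6.52, 5.97 and 5.64 in those labelled GPR15+. Both fractions had their highest value at number 1 and their lowest at number 6. The difference between fractions was 0.18 ± 0.26 (SE; 95% interval -0.42 to 0.78; limma adjusted p = 0.894), or 0.37, 0.17 and 0.011 within the numbers 1, 5 and 6. The means of the numbers 1, 5 and 6 were 6.33, 5.88 and 5.64 and so spanned 0.69, more than the difference between fractions. That held for 3 of the 5 receptors, Cxcr3, Cxcr6 and Cx3cr1, and for 77.5% of all genes. The Cx3cr1 difference was -0.055 without the sample labelled GPR15+ numbered 1 and 0.088 without both arrays numbered 1.

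Of the 5 receptors, 3 were above 0 within all 3 numbers, Cxcr4, Cxcr5 and Cx3cr1, and none was below 0 within all 3. Over all genes 13.4% were above 0 within all 3 numbers and 23.6% below, so that 37% kept 1 sign. For Cxcr3, Cxcr4, Cxcr6 and Cx3cr1 the difference was highest within number 1 and lowest within number 6, and for Cxcr5 the reverse held. Without both arrays numbered 1 the differences were 0.072 for Cxcr3, 0.15 for Cxcr4 and 0.90 for Cxcr5, and none passed (limma adjusted p = 0.847, 0.584 and 0.147). The median of the 5 receptors was 0.18, and 0.060 without the GPR15+ sample numbered 1. A positive median was not particular to them. T cell markers had a median of 0.14, with 6 of 9 above 0, and Treg markers one of 0.19, with 5 of 9 above. The T cell median turned sign in 2 of 12 settings. Of the receptors 4 were above the median level of all genes, and the shares of all genes were not matched for brightness.

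**Figure D3:**
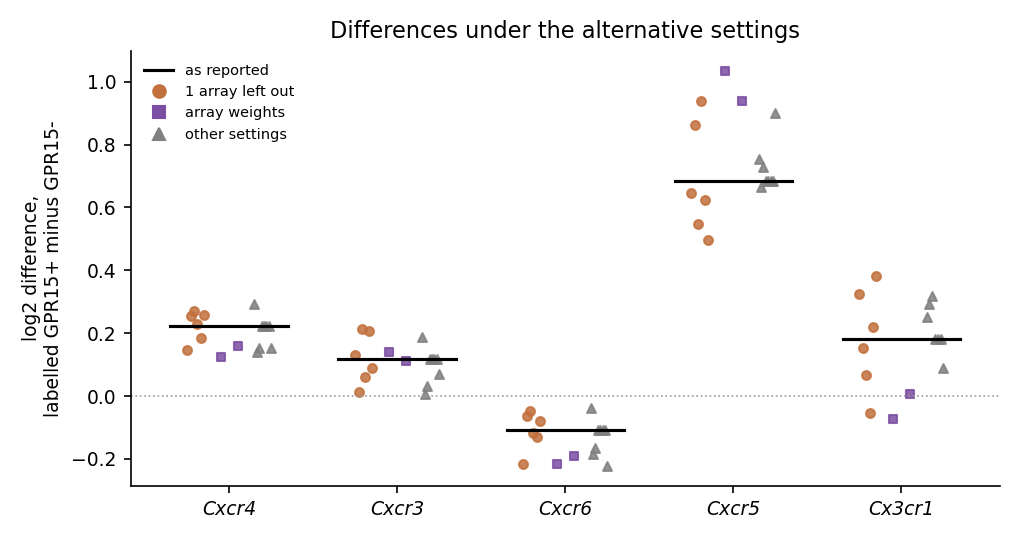
Log2 difference between samples labelled GPR15+ and GPR15- (vertical axis) for each receptor under 16 alternative settings, 15 for Cx3cr1. Black bars are the values as reported, orange circles leave out 1 array, purple squares use array weights, and grey triangles are the other settings. Cxcr5 ranges from 0.50 to 1.04 and stays above the other 4, and Cx3cr1 is the one gene that crosses 0.

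Transcripts of other cells that carry these receptors were examined beside them, as the sum of each marker list's signals on a linear scale. For Cxcr5 these are B cells. Of 8 measured B and plasma cell markers 1 was above the median level of all genes. By difference 2 lay above and 6 below 0, against 40.8% of all genes above 0, or 50.9% after centring. The 2 above were Ms4a1 (0.13) and Cd22 (0.02). The list sum was 626 to 706 in samples labelled GPR15- and 468 to 580.5 in those labelled GPR15+. It mixed B cell genes with the plasma cell genes Jchain (-1.13) and Mzb1 (-0.59). The brightest of the list were Blk, a kinase of the B cell receptor (-0.37), and Cd79a, a chain of that receptor (-0.36). For Cx3cr1 these are macrophages and monocytes. Of their 10 measured markers 2 were above the median level. By difference 2 lay above and 8 below 0, with a median of -0.16. It ranged from -0.32 without the GPR15+ sample numbered 1 to -0.020 with the intensity trend removed. Cx3cr1 differed by 0.18, and by -0.055 and 0.32 in those settings. The sum of the macrophage and monocyte markers was 679 to 808 in samples labelled GPR15- against 577 to 780.3 in those labelled GPR15+. The mean log2 level of these markers was highest in the arrays numbered 1, at 6.20 and 6.16 against 5.74 to 5.97 on the other 4, as was Cx3cr1. This was not particular to macrophage markers. The ligands of the receptors were also highest on these arrays, at 6.87 and 6.82 against 6.44 to 6.71, and these arrays had the narrowest spread of values. The part of either cell type in these values was not tested. The brightest macrophage markers were the Fc receptor Fcgr1 (-0.19) and the complement gene C1qb (0.01). The dendritic cell list had 7 of 8 members below 0, with the antigen presentation gene H2-Aa at -0.31, and a sum of 614 to 712 against 522 to 629. Its median was -0.25, and -0.13 with the intensity trend removed.

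CXCR6 is also carried by CD8 T, NK and innate lymphoid cells. Of 9 measured CD8 T and NK markers 5 lay above and 4 below 0, and the brightest, the granzymes Gzmb (0.47) and Gzma (-1.40), lay on either side. Their sum was 2517 to 2605 in samples labelled GPR15- and 2751 to 3348 in those labelled GPR15+. Gzmb made up most of it, and without Gzmb the other 8 summed to 906 to 945 and to 631 to 884, the opposite direction. Of 3 measured markers of γδ T and innate lymphoid cells 1 lay above and 2 below 0, and the brightest were Kit, the receptor for stem cell factor (-1.19), and the transcription factor Gata2 (-0.37). Among non-immune markers, 8 of 10 epithelial members lay below 0, with the galectin Lgals4 at 0.08 and the gut epithelial gene Phgr1 at -0.51. Of 8 stromal and endothelial members 7 lay below 0, with the collagen Col1a1 at -0.23 and the endothelial adhesion molecule Pecam1 at 0.45. Over all genes 40.8% lay above 0, or 50.9% after centring, shares not matched for brightness. With the intensity trend removed the epithelial median went from -0.23 to -0.13, and the stromal and endothelial one from -0.11 to 0.028. The part of the cell types named here in the receptor values was not tested either.

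The ligands of the receptors were measured in the same sorted cells, and their source in the tissue was not sampled. Of 8 ligands 2 lay above and 6 below 0, with a median of -0.13 against -0.063 for all genes, and 0 had an unadjusted p under 0.05 in limma. The ligand median was -0.27 without the GPR15+ sample numbered 1 and -0.061 without the GPR15- sample numbered 1. Without the GPR15+ sample numbered 5 it was -0.017, and without the one numbered 6 it was -0.036, then above the medians of all genes, -0.044 and -0.057. Cxcl9, a ligand of CXCR3, differed by -0.29 ± 0.22 (SE) and Cxcl16, the ligand of CXCR6, by -0.28 ± 0.18 (SE). Cxcl16 lay at 7.75, 7.79 and 7.84 in samples labelled GPR15- and at 7.74, 7.27 and 7.52 in those labelled GPR15+. Its fractions did not overlap, which with the GPR15+ label lower held for 9.17% of all genes. The GPR15+ sample numbered 1 was 0.010 below its partner of equal number. The other CXCR3 ligands, Cxcl10 (-0.14) and Cxcl11 (-0.13), took both signs among the numbers. Cxcl12, the ligand of CXCR4, differed by -0.048 and Cxcl13, the ligand of CXCR5, by 0.020, the latter at the 8.95 percentile of level. Cx3cl1 differed by -0.27, of which -0.96 was found within number 5 and 0.084 and 0.061 within the numbers 1 and 6. Mif, a cytokine that also binds CXCR4, was bright, at the 95.8 percentile, and differed by 0.13.

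Of 7 other CXC, XC and atypical chemokine receptors 2 lay above and 5 below 0, with a median of -0.091 that ranged over the settings from -0.24 (without the GPR15+ sample numbered 1) to 0.046 (intensity trend removed). Cxcr2, a receptor of neutrophils, had an unadjusted p of 0.0129 in limma and an adjusted p of 0.773. It lay at 6.35, 6.45 and 6.18 in samples labelled GPR15- and at 5.72, 5.93 and 5.77 in those labelled GPR15+, without overlap. Such a lack of overlap with the GPR15+ label lower was found for 9.17% of all genes. The level of Cxcr2 was dim, at the 37.8 percentile. Its difference of -0.52 ± 0.16 (SE) was -0.64, -0.52 and -0.41 within the numbers. Xcr1, a receptor of cross-presenting dendritic cells, differed by -0.32 ± 0.23 (SE).

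Genes that couple these receptors to movement lay mostly above 0, with 15 of 19 above and 4 below, against 40.8% of all genes above 0, or 50.9% after centring. Their median was 0.12, and over the settings it ranged from 0.043 with quantile normalization to 0.30 without the GPR15+ sample numbered 1. That median was -0.0069 within number 1, 0.22 within number 5 and 0.078 within number 6, so number 1 did not share the shift. These genes were bright, 17 of the 19 exceeding the median gene in signal. The shares of all genes were not matched for brightness. The median difference of all genes was -0.063, and -0.016 without the 40% dimmest. None of the 19 had an unadjusted p under 0.05 in limma without the block. The largest differences were those of Vav1, a signalling protein downstream of the T cell receptor, at 0.72 ± 0.58 (SE), and of Elmo1, which works with Dock2 to activate Rac, at 0.44 ± 0.33 (SE). Vav1 differed between the numbers far more than between the fractions, at 7.66 and 8.17 in the samples numbered 1 and between 9.10 and 10.05 in the others. Within the numbers 1, 5 and 6 its difference was 0.51, 0.80 and 0.85. With the number as a block its unadjusted p was 0.00251 and its adjusted p from limma 0.269.

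Genes that switch chemokine receptors off showed no common direction, with 6 of 12 above and 6 below 0 and a median of 0.018 that turned sign in 4 of 12 settings. Grk6, a kinase that phosphorylates G protein-coupled receptors, including CXCR4, had an unadjusted p of 0.0344 in limma and an adjusted p of 0.773, and no other member was under 0.05. It lay at 7.47, 7.84 and 7.46 in samples labelled GPR15- and at 7.81, 8.39 and 8.18 in those labelled GPR15+. The fractions overlapped by the GPR15- sample numbered 5, and the difference was 0.54 ± 0.21 (SE). Arrb1, the β-arrestin that binds phosphorylated receptors, differed by 0.39 ± 0.27 (SE), with 1.01 within number 5 and -0.095 within number 6.

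Transcription factors tied to expression of the receptors lay on either side of 0, with 8 of 13 above and a median of 0.039 that turned sign in 3 of 12 settings. Maf, a factor of follicular and interleukin-10-producing T cells, differed by 0.43 ± 0.27 (SE) and Prdm1, which encodes BLIMP-1, by 0.30 ± 0.34 (SE). None of this group had an unadjusted p under 0.05 in limma without the block. With the block Maf had one of 0.0384 and an adjusted p of 0.388 in limma, and 12.4% of all genes were then under 0.05 unadjusted.

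**Figure D4:**
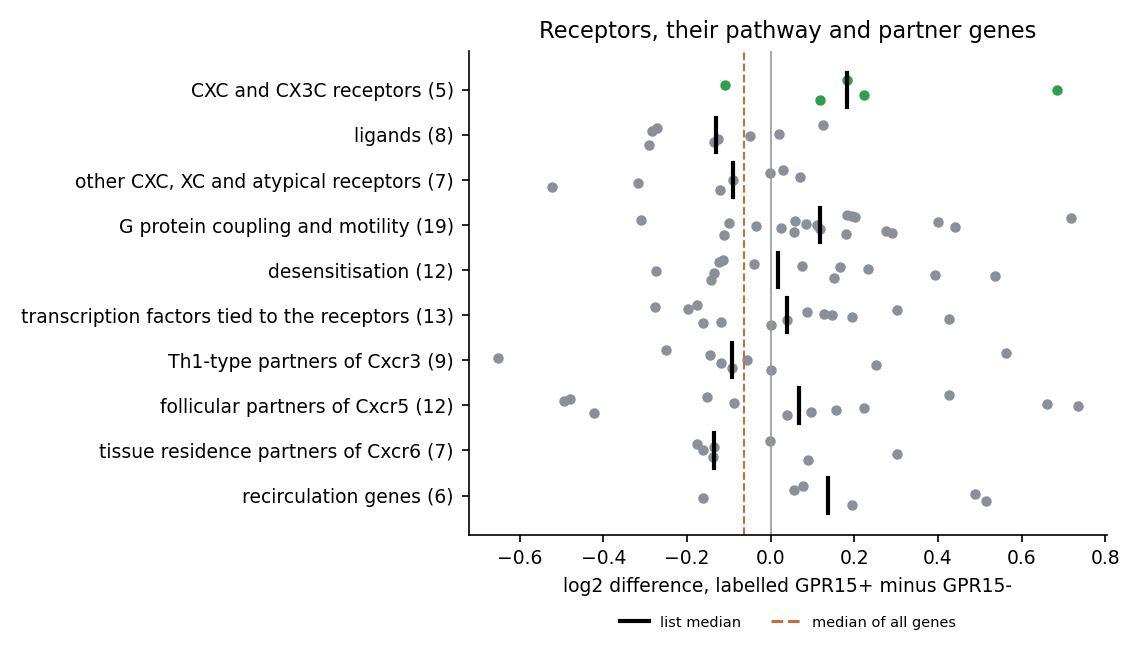
Log2 difference between samples labelled GPR15+ and GPR15- (horizontal axis) for the 5 receptors (green) and for genes of their pathway and of T cell states that go with them (grey). Each point is a gene, numbers in brackets count the measured genes, black bars are list medians, and the dashed line is the median of all genes, -0.063. The lists spread on both sides of 0, and the receptor median lies at 0.18, or at 0.060 without the GPR15+ sample numbered 1. T cell and Treg markers, not shown, had medians of 0.14 and 0.19.

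Follicular T cell genes, the programme that goes with Cxcr5, did not lie in 1 direction. Of 12 members 7 lay above and 5 below 0, with a median of 0.068 that ranged from -0.088 (without the GPR15+ sample numbered 5) to 0.15 (without both arrays numbered 1). At an unadjusted p under 0.05 limma found 1 higher and 2 lower, against 2.79% and 3.44% of all genes. Slamf6, a SLAM family receptor, was the higher one, at 9.61, 9.46 and 9.73 in samples labelled GPR15- and at 9.88, 10.51 and 10.62 in those labelled GPR15+. Its fractions did not overlap, which with the GPR15+ label higher held for 4.12% of all genes. Like Cxcr5 it had its smallest difference within number 1, at 0.27 against 1.05 and 0.88. The difference was 0.73 ± 0.23 (SE; limma adjusted p = 0.773). Btla, an inhibitory receptor of B and T cells, differed by 0.66 ± 0.31 (SE), with -0.21 within number 1, 0.75 within number 5 and 1.45 within number 6.

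The lower follicular members were Sostdc1, a secreted antagonist made by follicular T cells, at -0.49 ± 0.18 (SE), and Ascl2, a transcription factor that induces CXCR5, at -0.48 ± 0.20 (SE). Sostdc1 lay at 8.07, 7.81 and 7.81 in samples labelled GPR15- and at 7.65, 7.35 and 7.21 in those labelled GPR15+. Sostdc1 and Ascl2 did not overlap between fractions and were below 0 within all 3 numbers, whereas Cxcr5 was above 0 within all 3. Over all genes 9.17% were lower without overlap, 23.6% were below 0 within all 3 numbers and 13.4% above. Bcl6, the factor that defines follicular T cells, differed by 0.039 ± 0.23 (SE), and Pdcd1, which encodes PD-1, by -0.42 ± 0.37 (SE).

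**Figure D5:**
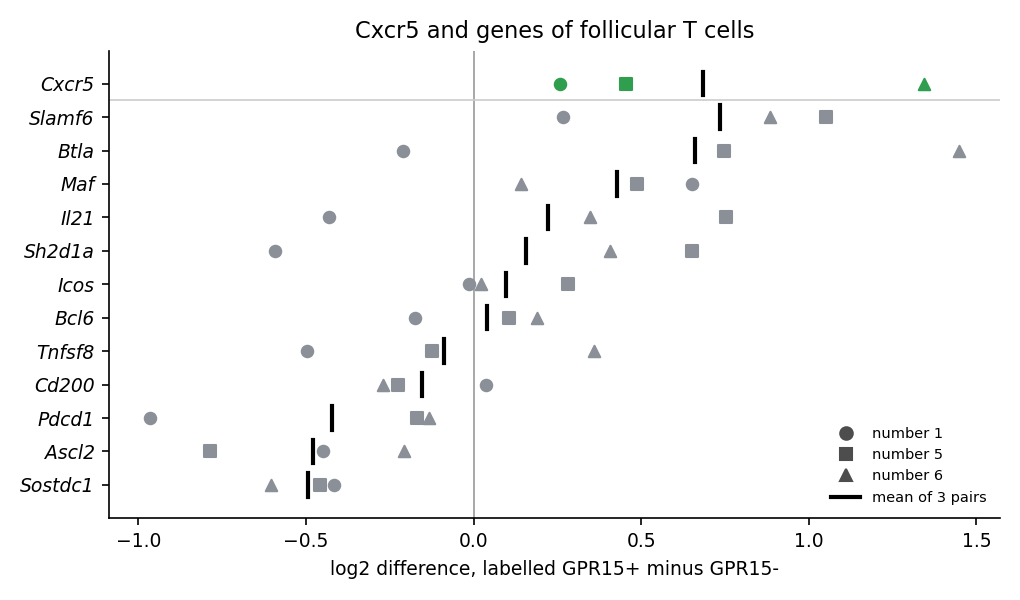
Log2 difference between samples labelled GPR15+ and GPR15- (horizontal axis) for Cxcr5 (green) and 12 genes of follicular T cells (grey), sorted by their mean. Marker shapes are the title numbers and black bars the mean of the 3 differences. Cxcr5, Slamf6 and Btla lie at 0.66 to 0.73, and Sostdc1 and Ascl2 at -0.49 and -0.48.

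The partners of the other receptors were described in the same way. Of 9 type 1 genes that go with Cxcr3, 3 lay above and 6 below 0, with a median of -0.092, which was 0.050 without the GPR15- sample numbered 5. Il18rap, a chain of the interleukin-18 receptor, was the 1 member with an unadjusted p under 0.05 in limma, at -0.65 ± 0.22 (SE; limma adjusted p = 0.773). Over all genes 6.23% were under that unadjusted threshold, 3.44% of all genes being lower. Nkg7, a gene of cytotoxic granules, lay above 0 at 0.56 ± 0.37 (SE), of which 1.63 was found within number 5. Tbx21, the type 1 master regulator that drives Cxcr3, was dim, at the 36.5 percentile, and its means were 6.01 in both fractions. Of 7 tissue residence genes that go with Cxcr6, 2 lay above and 5 below 0, with a median of -0.14 and 0 at an unadjusted p under 0.05 in limma. That median was 0.012 without the GPR15+ sample numbered 1. Their largest differences were those of Prdm1 (0.30) and of Ahr, a receptor for dietary and microbial ligands (-0.18). Of 6 recirculation genes 5 lay above 0, with a median of 0.14 that was 0.035 without the GPR15+ sample numbered 5. The transcription factor Lef1 differed by 0.49 ± 0.20 (SE; limma unadjusted p = 0.0379, adjusted p = 0.773), and S1pr1, the receptor for exit from tissue, by 0.52 ± 0.27 (SE).

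The genes most like each receptor were sought by the root mean square difference over the 6 arrays, each gene centred on its own mean, among 9336 brighter genes. With so many candidates and 6 arrays, close matches are found for any gene, and the values are a description. For Cxcr5 the nearest were Tmem126a, Ddx46 and Khdrbs1, at 0.14, 0.15 and 0.15 log2 units, against 0.47 for the spread of Cxcr5 about its own mean. These differed between fractions by 0.43, 0.84 and 0.57. For Cxcr4 the nearest was Ncf4, a subunit of the phagocyte oxidase, at 0.03, followed by H2-T10 and Tra2b. Cxcr3 was nearest to Samd10, Cfap410 and Prok1, at 0.06 each, and Cxcr6 to Gas2l2, Fam117a and Naprt, at 0.02 to 0.04. Cx3cr1 was nearest to Mrps5, Asph and Clpx, at 0.06 to 0.08, and all 3 had their highest values in the samples numbered 1. Among themselves the receptors were from 0.17 (Cxcr4 and Cxcr6) to 0.62 (Cxcr5 and Cx3cr1) apart. Cxcr4 and Cxcr6 had spreads of 0.14 and 0.12 about their own means, so 0.17 is no close likeness. These distances cannot be set against those of the nearest genes, which were picked from 9336 candidates.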

How the data were processed

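Values are log2 signals per probe set that the authors deposited after RMA (background correction, quantile normalization and summarisation), as the submitters' processing notes say without a version. Per the labels' protocols, 2 to 10 ng of total RNA were biotin-labelled for a single-channel Affymetrix array. The genome build behind the probe annotation is not given in the sources used here.

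Of 22142 rows, 19527 had 1 gene symbol in the platform annotation, 0 several and 2615 none. For 33 genes with several rows the one with the highest mean was kept, which left 19494 genes. Each difference is the mean labelled GPR15+ less the mean labelled GPR15-. The fit used lmFit and eBayes of limma 3.58.1 (R 4.3.3) without a block, adjusted by Benjamini-Hochberg over all genes at a threshold of 0.05. SEs are limma's moderated ones, and the script was checked on simulated data.

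Equal title numbers were checked for pairing: the correlations of deviations from the fraction means were 0.567, 0.381 and 0.319 for numbers 1, 5 and 6, each over 0.1. The numbers were therefore treated as pairs in the differences within numbers and in the fit with a block. The SEs and intervals given are from the fit without it. For Cx3cr1 the SE was 0.26 without the block and 0.16 with it, and for Cxcr4 0.16 in either fit. Unequal numbers also correlated, at 0.315 for GPR15- number 6 with GPR15+ number 5 and at 0.213 for GPR15- number 5 with GPR15+ number 6. The pairing of the numbers 5 and 6 is therefore less clear than that of number 1.

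The receptors and gene lists were chosen with earlier results of these data known, and lists were described without a test. From each pathway or partner list the text names members with an unadjusted p under 0.05 and the 2 with the largest difference, from marker lists the 2 brightest, and for each receptor the 3 nearest genes. Il2ra, Bcl6, Pdcd1, Tbx21, Ms4a1, Cd22, Jchain, Mzb1 and the ligands other than Cxcl9 and Cxcl16 were named outside that rule. They were named after their values were seen or to complete the receptor pairs. Some genes stand in several lists, and some listed genes were not analysed here. The marker sum without Gzmb was added after seeing the data. Alternatives covered scaling, dim genes, all rows, the variance model, the block and left-out arrays.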

Additional observations from a re-analysis of the deposited data

How the results depend on the processing

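The differences of Cxcr3, Cxcr4, Cxcr5 and Cxcr6 kept their sign under the 16 alternatives run, and that of Cx3cr1 under 13 of 15, since the filter on the 40% dimmest genes removed it. Cx3cr1 reversed with array weights (-0.073) and without GPR15+ replicate 1 (-0.055). Array weights called 2174 genes and 1 receptor, Cxcr5 (1.04), against 0 genes and 0 receptors as reported, and gene-by-gene weights, added after seeing the data, called 2 genes and 0 receptors. Every other alternative called 0 genes. With 1 array left out, Cxcr3 ranged from 0.013 to 0.21, Cxcr4 from 0.15 to 0.27, Cxcr5 from 0.50 to 0.94, Cxcr6 from -0.21 to -0.048 and Cx3cr1 from -0.055 to 0.38. With the replicate block the adjusted p from limma was 0.758 for Cxcr3, 0.568 for Cxcr4, 0.364 for Cxcr5, 0.792 for Cxcr6 and 0.641 for Cx3cr1, so the pairing changed no call.

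At an unadjusted p under 0.05, all genes numbered 1214 as reported, 713 without the dimmest genes, 2411 with the block, 6534 with array weights, and between 668 and 4351 with 1 array left out, the highest without GPR15+ replicate 1. The order of the receptors by signal was also found under every rescaling and with any array left out. Since each array showed that order by itself, leaving arrays out, centring and quantile normalization could not have changed it. Of 18 other lists, 9 had a median that turned sign under at least 1 setting, the follicular list among them (-0.088 without GPR15+ replicate 5). The cause of these changes was not tested. The small number of arrays and the dim signal of Cx3cr1 limit what can be seen.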
